A study of Mus musculus with 43 samples.

Results

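Solute carriers are membrane proteins that move small molecules across cell membranes, and the genes described here are the sugar, amino acid and peptide carriers of mouse intestinal epithelium. They were taken by symbol, as all genes of the families Slc1, Slc2, Slc3, Slc5, Slc6, Slc7, Slc15, Slc36, Slc38 and Slc43 other than pseudogenes. This rule was set with earlier results of these data known. The 3 deposited expression tables hold 94 such genes among 23951. Of these, 53 reached at least 1 FPKM (fragments scaled to transcript length and library size) in at least 1 of 18 libraries, a level that 12524 genes of the tables reached, and these 53 are described. The members nearest that limit were Slc38a11, with a highest value of 1.00 FPKM, inside it and Slc43a3, with 0.988 FPKM, outside it. Slc7a6os fits the symbol rule but is a gene on the opposite strand to Slc7a6 and not a carrier, and Slc3a1 and Slc3a2 are partner subunits rather than carriers.

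Primary intestinal organoids are cultured epithelium grown from intestinal stem cells. Organoids of wild-type C57BL/6 mice were sequenced in bulk in 6 groups of 3 libraries. Non-irradiated organoids were collected on day 7 (D7), organoids given 4 Gy of ionizing radiation on day 4 were collected on D7, and others given 4 Gy on day 4 were collected on day 11 (D11). Each of these received vehicle or 2 ng/mL TGFB1, a secreted cytokine, on day 6 for 24 h, so that the D11 libraries were made 4 days after the end of the treatment. Single cells came from irradiated organoids collected on day 8 (4 Gy on day 4), with 1 library after vehicle for 24 h (called 0 h) and 1 library each after 6, 15 and 24 h of 1 ng/mL TGFB1. Single cells also came from sorted Ki67-RFP+ (cycling) crypt cells of the proximal small intestine of Mki67tm1.1Cle/J reporter mice. Of these, 1 library came from a non-irradiated littermate and 2 libraries were taken 56 h after 12 Gy to the whole body. The labels number the replicates but name neither cultures nor animals for them, so p-values measure the spread between these libraries, which may be technical.

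In the intestine, sugar and amino acids cross the epithelium in steps. Apical carriers in the brush border of enterocytes take up glucose and galactose with sodium (Slc5a1), fructose by facilitated diffusion (Slc2a5), small peptides with protons (Slc15a1), and neutral, imino, cationic and acidic amino acids (Slc6a19, Slc6a20a, the Slc3a1 and Slc7a9 pair, and Slc1a1). Basolateral carriers release them to the blood side (Slc2a2 for sugars, Slc7a7 and Slc7a8 with the heavy chain Slc3a2, and Slc43a2 for amino acids). A further group, including Slc2a1, Slc7a5, Slc1a5, Slc38a1, Slc38a2 and Slc7a11, feeds cells that divide or meet stress, and several of its genes are known targets of the amino acid response factor ATF4.

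Each bulk library had 11040 to 11361 genes over 1 FPKM, its total lay between 447728 and 621996 FPKM, and the read depth is unknown. The D11 vehicle replicate 3 stood apart from the other D11 vehicle libraries, with more enterocyte RNA (the summed level of 10 enterocyte markers was 3410 to 6050 FPKM over these 3 libraries, with this library highest). Values without it are given beside several D11 results. All bulk differences below are of log2(FPKM + 1), TGFB1 minus vehicle, ± SE, from limma with Benjamini-Hochberg adjusted p-values over all genes of a fit. This scale understates the change of low genes. Genes called higher or lower had an adjusted p under 0.05.

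Counted over the members, TGFB1 in non-irradiated D7 organoids called 7 higher and 23 lower of the 41 members that passed the filter (averaging 1 FPKM or more over the libraries of a fit). Over all 11330 genes tested there, 33.3% were called higher and 34.9% lower, 68.2% together. In irradiated D7 organoids 15 of 44 members were higher and 18 lower, beside 35.8 and 39.7% of all genes (75.5% together). At D11 12 of 45 were higher and 21 lower, beside 32.3 and 31.6% of all genes (63.9% together). Without the D11 vehicle replicate 3 the D11 counts were 14 and 20, and Slc6a20a (0.39, adjusted p = 0.0437) and Slc7a7 (0.22, adjusted p = 0.0405) were then called higher. The median change of the members was -0.25, -0.05 and -0.15 in these contrasts, and that of all genes tested -0.02, -0.03 and 0.01. Lower calls thus made up 56.1, 40.9 and 46.7% of the members tested, of which the second lay near the share of all genes. With a change of at least 2-fold, no member was higher and 7 were lower without irradiation (5.52 and 2.92% of all genes), 2 were higher and 6 lower in irradiated D7 organoids (7.79 and 5.39%), and 6 were higher and 10 lower at D11 (5.67 and 8.04%).

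Of the 39 members tested in all 3 contrasts, 11 were called lower in each, which were Slc1a1, Slc1a3, Slc1a4, Slc1a5, Slc2a2, Slc2a5, Slc5a1, Slc6a4, Slc7a4, Slc15a1 and Slc38a1. Another 4 were called higher in each, which were Slc2a1, Slc6a8, Slc6a9 and Slc7a6. A further 8 were called in opposite directions in different contrasts, among them Slc7a5, Slc7a8, Slc7a9 and Slc43a2, and 3 were called in none. Among the 10823 genes tested in all 3 contrasts, 13.5% were lower in each, 14.6% higher in each and 20.3% called in opposite directions. The 4 members tested in no contrast were Slc2a10, Slc6a7, Slc36a4 and Slc38a11. By family, the Slc38 carriers gave 1 lower call of 6 without irradiation, 3 higher and 1 lower of 6 in irradiated D7 organoids, and 1 higher and 3 lower of 6 at D11. The Slc7 family, the largest tested, gave 3 higher and 5 lower calls of 10 without irradiation, 4 and 4 in irradiated D7 organoids and 3 and 3 at D11.

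TGFB1 lowered the main sugar carriers of the absorptive epithelium in all 3 conditions, and raised Slc2a1, the glucose carrier of most growing cells. Slc5a1 stood at 210.4, 221 and 207 FPKM with vehicle and 40.4, 46.0 and 41.1 FPKM with TGFB1 in the 3 libraries each of non-irradiated D7 organoids. After irradiation it stood on D7 at 362, 351 and 366 FPKM with vehicle and 221, 211 and 209.5 FPKM with TGFB1, and in D11 organoids at 154, 140.3 and 256 and 48.4, 51.8 and 53.9 FPKM. Every TGFB1 library lay below every vehicle library of its table. The change was -2.30 ± 0.05 (adjusted p = 4.90e-11) without irradiation, -0.75 ± 0.04 (adjusted p = 2.05e-08) in irradiated D7 organoids and -1.76 ± 0.21 (adjusted p = 1.65e-04) at D11. Without the D11 vehicle replicate 3, whose 256 FPKM was the highest of its group, the D11 change was -1.5. Slc5a1 had the highest mean FPKM of its family over the 18 libraries.

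Slc2a2, the sugar carrier of the basolateral membrane, fell in the same 3 conditions. Its vehicle libraries stood at 24.3, 25.3 and 23.8 FPKM and its TGFB1 libraries at 3.05, 3.54 and 3.35 FPKM in non-irradiated D7 organoids, a change of -2.56 ± 0.06 (adjusted p = 4.05e-11). In irradiated D7 organoids the levels were 44.3, 46.5 and 47.9 FPKM with vehicle and 30.6, 30.7 and 30.1 FPKM with TGFB1 (-0.59 ± 0.04, adjusted p = 3.40e-07). At D11 the levels were 14.3, 13.2 and 23.7 FPKM and 5.64, 3.39 and 4.58 FPKM (-1.68 ± 0.23, adjusted p = 5.04e-04; -1.44 without vehicle replicate 3), and the groups did not overlap in any of the 3 tables. The apical fructose carrier Slc2a5 stood at 14.4, 12.7 and 12.9 FPKM with vehicle and 2.65, 2.24 and 2.27 FPKM with TGFB1 without irradiation. On D7 after irradiation it stood at 65.3, 64.0 and 62.9 and 36.2, 34.3 and 34.5 FPKM, and at D11 at 20.2, 19.9 and 28.8 and 9.43, 11.6 and 9.32 FPKM, again with no overlap. Its changes were -2.08 ± 0.07, -0.85 ± 0.04 and -1.09 ± 0.14 in that order (adjusted p = 9.30e-10, 1.23e-08 and 1.26e-04).

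The irradiation and TGFB1 interaction, that is the TGFB1 change in irradiated minus that in non-irradiated D7 organoids, was 1.98 ± 0.07 (adjusted p = 4.69e-11) for Slc2a2, 1.55 ± 0.06 (adjusted p = 3.40e-10) for Slc5a1 and 1.22 ± 0.08 (adjusted p = 1.64e-08) for Slc2a5. The falls were thus smaller in irradiated than in non-irradiated organoids at D7. The day and TGFB1 interaction, the change at D11 minus that at D7 in irradiated organoids, was -1.10 ± 0.27 (adjusted p = 0.00407) for Slc2a2 and -1.02 ± 0.23 (adjusted p = 0.0022) for Slc5a1, larger falls at D11. It was -0.85 and -0.75 without the D11 vehicle replicate 3. For Slc2a5 it was -0.24 ± 0.16 (adjusted p = 0.21), which did not pass the test.

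Of the sugar carriers with lower levels, Slc2a7, a facilitative carrier of the same family, stood at 4.28, 4.64 and 4.11 FPKM with vehicle and 1.30, 1.93 and 1.56 FPKM with TGFB1 in irradiated D7 organoids (-1.05 ± 0.10, adjusted p = 2.95e-06), and at no more than 0.680 FPKM in the other tables. Its day interaction was 0.71 ± 0.15 (adjusted p = 8.29e-04), with an adjusted p of 0.375 at a pseudocount of 0.1 FPKM. Its irradiation interaction, -0.55 ± 0.15 (adjusted p = 0.00787), turned its direction to 0.59 (adjusted p = 0.218) at that pseudocount. Slc5a11, a sodium-coupled carrier of inositol and glucose, went from 15.6, 14.0 and 15.5 FPKM with vehicle to 8.23, 8.35 and 7.52 FPKM with TGFB1 in irradiated D7 organoids (-0.83 ± 0.06, adjusted p = 4.90e-07). At D11 it went the other way, from 0.586, 0.477 and 1.32 to 2.11, 1.41 and 2.14 FPKM (0.71 ± 0.18, adjusted p = 0.00691), and the day interaction was 1.53 ± 0.21 (adjusted p = 2.16e-05). Slc5a4b, a gene with a near copy (Slc5a4a) whose reads may be split between them, stood at 16.0, 17.8 and 22.3 FPKM with vehicle and 10.7, 11.9 and 9.75 FPKM with TGFB1 in irradiated D7 organoids (-0.73 ± 0.11, adjusted p = 3.26e-04).

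Slc2a1 moved against these genes. It stood at 119, 121 and 121 FPKM with vehicle and 199, 217 and 210.2 FPKM with TGFB1 in non-irradiated D7 organoids (0.79 ± 0.04, adjusted p = 1.02e-08). Irradiated D7 organoids held it at 73.2, 69.9 and 70.2 FPKM with vehicle and 84.6, 84.5 and 88.7 FPKM with TGFB1 (0.27 ± 0.04, adjusted p = 7.42e-05). At D11 the vehicle libraries stood at 24.4, 34.3 and 57.3 FPKM and the TGFB1 libraries at 76.4, 99.2 and 68.9 FPKM (1.12 ± 0.34, adjusted p = 0.0325). All TGFB1 libraries lay above the vehicle libraries of their table. The vehicle spread was widest at D11, and the adjusted p there was over 0.05, up to 0.093, when vehicle replicate 2 or any 1 TGFB1 replicate was left out. The rise was smaller in irradiated than in non-irradiated D7 organoids, with an interaction of -0.52 ± 0.05 (adjusted p = 1.31e-06). The irradiated change and this term had adjusted p of 0.264 and 0.184 when all 18 libraries shared a fit.

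**Figure D1:**
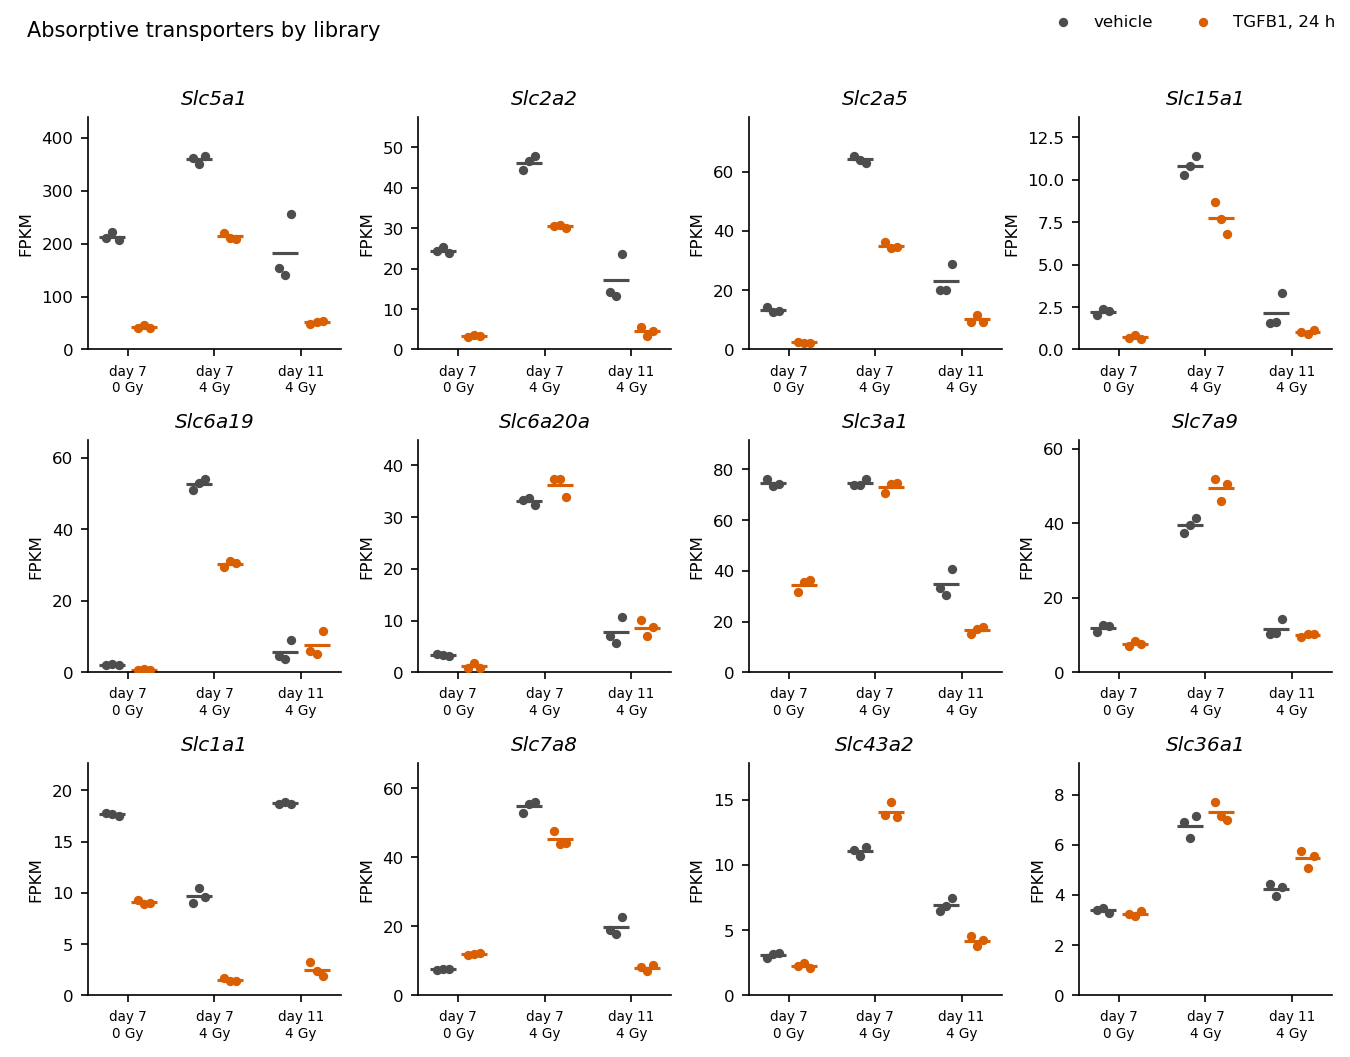
Levels in FPKM (linear axes from 0, scaled per gene) of 12 absorptive carriers in the 3 conditions on the horizontal axes, 1 point per library, with vehicle and TGFB1 in separate colours and a bar at each group mean. For Slc5a1, Slc2a2 and Slc2a5 the 3 TGFB1 libraries lay below the 3 vehicle libraries in each condition.

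The apical carriers Slc15a1, Slc6a19, Slc6a20a and Slc7a9 and the subunit Slc3a1 fell with TGFB1 in non-irradiated organoids. Of these 5, Slc15a1 and Slc6a19 also fell in irradiated D7 organoids. Slc15a1, the intestinal carrier of di- and tripeptides, stood at 2.05, 2.36 and 2.28 FPKM with vehicle and 0.684, 0.834 and 0.640 FPKM with TGFB1 without irradiation (-0.91 ± 0.09, adjusted p = 3.56e-06). In the irradiated D7 table it stood at 10.3, 10.8 and 11.4 FPKM with vehicle and 8.68, 7.68 and 6.79 FPKM with TGFB1 (-0.45 ± 0.08, adjusted p = 4.16e-04). At D11 it stood at 1.54, 1.62 and 3.32 and 1.05, 0.940 and 1.14 FPKM (-0.59 ± 0.19, adjusted p = 0.0205). The D11 change was -0.34 without vehicle replicate 3, and its adjusted p was 0.0596 without TGFB1 replicate 2. The other peptide carriers did not pass the test where they were tested. Slc15a2, the high-affinity peptide carrier, reached at most 1.53 FPKM, and Slc15a4, a lysosomal histidine and peptide carrier and the member of its family with the highest mean level, had a non-irradiated vehicle level of 16.2, 15.4 and 16.2 FPKM and a TGFB1 level of 16.1, 16.0 and 16.0 FPKM.

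Slc6a19, the main apical carrier of neutral amino acids, stood at 2.16, 2.33 and 2.08 FPKM with vehicle and 0.621, 0.976 and 0.753 FPKM with TGFB1 in non-irradiated D7 organoids (-0.84 ± 0.09, adjusted p = 1.35e-05). After irradiation it stood on D7 at 50.9, 52.7 and 54.0 FPKM with vehicle and 29.4, 31.2 and 30.4 FPKM with TGFB1 (-0.77 ± 0.04, adjusted p = 3.97e-08). At D11 the groups overlapped, with 4.53, 3.83 and 9.12 FPKM after vehicle and 6.02, 5.11 and 11.5 FPKM after TGFB1 (0.33 ± 0.40, adjusted p = 0.503). In both D11 groups the library numbered 3 was highest. The day interaction was 1.10 ± 0.43 (adjusted p = 0.0495), and its adjusted p was over 0.05 in most left-out libraries, up to 0.102 without vehicle replicate 2. Slc6a20a, the imino acid carrier that takes up proline, has a near copy (Slc6a20b) with which reads may be shared. It fell without irradiation, from 3.57, 3.29 and 3.24 FPKM with vehicle to 0.830, 1.81 and 0.931 FPKM with TGFB1 (-1.02 ± 0.14, adjusted p = 1.29e-04). In irradiated D7 organoids its level was 33.2, 33.7 and 32.4 FPKM with vehicle and 37.3, 37.4 and 33.8 FPKM with TGFB1, a rise of 0.12 ± 0.05 (adjusted p = 0.038) whose adjusted p reached 0.551 under other settings. The irradiation interaction was 1.14 ± 0.17 (adjusted p = 9.40e-05).

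Slc3a1 and Slc7a9 encode the heavy chain and the carrier of the exchanger for cystine and basic amino acids. Slc3a1 stood at 76.2, 73.4 and 74.0 FPKM with vehicle and 31.6, 35.7 and 36.4 FPKM with TGFB1 without irradiation (-1.09 ± 0.05, adjusted p = 1.40e-08). On D7 after irradiation it stood at 74.0, 73.9 and 76.1 and 70.7, 74.0 and 74.5 FPKM, overlapping groups with a difference of -0.03 ± 0.04 (adjusted p = 0.46). At D11 it stood at 33.2, 30.5 and 40.6 FPKM with vehicle and 15.0, 17.0 and 17.7 FPKM with TGFB1 (-1.02 ± 0.11, adjusted p = 2.98e-05). Its interactions were 1.06 ± 0.07 (adjusted p = 1.23e-08) with irradiation and -0.99 ± 0.12 (adjusted p = 9.01e-06) with day. Slc7a9 fell without irradiation, from 10.8, 12.7 and 12.4 to 6.97, 8.41 and 7.69 FPKM (-0.58 ± 0.08, adjusted p = 5.36e-05), and rose in irradiated D7 organoids, from 37.3, 39.6 and 41.4 to 51.9, 46.1 and 50.4 FPKM (0.32 ± 0.05, adjusted p = 3.10e-04). Its D11 levels of 10.3, 10.6 and 14.2 FPKM with vehicle and 9.55, 10.2 and 10.2 FPKM with TGFB1 did not pass the test (-0.19 ± 0.12, adjusted p = 0.163). Its interaction with irradiation was 0.90 ± 0.10 (adjusted p = 4.49e-06).

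The promoters of Slc3a1 and Slc6a20a are shown from the members whose windows held a match to the sites named below. Slc36a1, Slc7a15 and Slc7a7 also held a match and are not shown. Slc3a1 and Slc6a20a fell with TGFB1 in non-irradiated but not in irradiated D7 organoids and were lower in irradiated crypt cells (below). Slc7a9, Slc43a2 and Slc5a6 had the same directions and gave no match. Each runs from 150 bases before to 10 bases after the RefSeq start site (GRCm38.p6), 5′ to 3′ on the gene's strand, at chr17:85028197-85028356 (plus strand) for Slc3a1 and chr9:123678823-123678982 (minus strand) for Slc6a20a. Capitals mark matches, on either strand, to CAAAGTCCA (an HNF4 site) and GTTAAT (a short HNF1 site), 2 factors of enterocyte genes.
Slc3a1: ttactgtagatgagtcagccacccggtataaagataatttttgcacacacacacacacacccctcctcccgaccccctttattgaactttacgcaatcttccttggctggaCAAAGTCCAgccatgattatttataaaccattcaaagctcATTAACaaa
Slc6a20a: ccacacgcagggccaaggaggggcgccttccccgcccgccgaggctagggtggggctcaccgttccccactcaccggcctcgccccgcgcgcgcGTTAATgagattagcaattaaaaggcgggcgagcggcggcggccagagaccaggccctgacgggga
The HNF4 letters began 39 bases before the Slc3a1 start and HNF1 letters 2 bases after it, and the HNF1 letters of Slc6a20a began 56 bases before its start. In windows of 300 bases (250 before to 50 after a start), CAAAGTCCA was in 0.475% and GTTAAT in 7.1% of 32851 RefSeq promoters. Of the 53 members 43 matched the promoter table, with 55 windows. CAAAGTCCA was in 1 and GTTAAT in 5 of these 55, the latter also in windows of Slc36a1, Slc7a15 and Slc7a7. A match is a description of the letters only.

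Slc1a1, the apical carrier of glutamate and aspartate, had the largest falls among the amino acid carriers of irradiated D7 organoids. It stood at 17.8, 17.7 and 17.5 FPKM with vehicle and 9.30, 8.93 and 9.02 FPKM with TGFB1 without irradiation (-0.89 ± 0.04, adjusted p = 1.40e-08). Irradiated D7 organoids held it at 9.04, 10.5 and 9.58 FPKM with vehicle and 1.71, 1.44 and 1.36 FPKM with TGFB1 (-2.10 ± 0.08, adjusted p = 3.77e-09), and at D11 at 18.7, 18.9 and 18.7 and 3.28, 2.40 and 1.87 FPKM (-2.51 ± 0.13, adjusted p = 3.53e-07). Vehicle and TGFB1 libraries stood apart in all 3 tables. Slc1a1 fell more in irradiated organoids, with an interaction of -1.21 ± 0.09 (adjusted p = 5.65e-08). All 4 members of the Slc1 family that were tested fell in all 3 conditions. Slc1a3, another glutamate carrier, fell from 4.16, 4.45 and 4.31 to 0.788, 0.917 and 0.887 FPKM in irradiated D7 organoids (-1.51 ± 0.08, adjusted p = 2.53e-08), and by -0.73 ± 0.07 without irradiation and -1.32 ± 0.11 at D11 (adjusted p = 3.32e-06 and 5.34e-06).

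Carriers of the basolateral membrane did not move together. Slc7a8, the light chain that exports neutral amino acids, stood at 7.31, 7.49 and 7.66 FPKM with vehicle and 11.6, 12.0 and 12.4 FPKM with TGFB1 without irradiation (0.61 ± 0.05, adjusted p = 8.14e-07). In the irradiated D7 table it stood at 52.9, 55.5 and 56.0 FPKM with vehicle and 47.5, 43.9 and 44.1 FPKM with TGFB1 (-0.27 ± 0.04, adjusted p = 2.11e-04), and at D11 at 18.9, 17.8 and 22.7 and 8.13, 6.97 and 8.81 FPKM (-1.21 ± 0.11, adjusted p = 1.07e-05). It thus rose in the first table and fell in the others, and both interactions were negative (-0.89 ± 0.06 with irradiation and -0.94 ± 0.12 with day, adjusted p = 3.56e-08 and 1.72e-05). Slc7a7, the light chain that exports cationic amino acids, had the highest mean level of the Slc7 family. It rose from 24.0, 24.3 and 24.6 to 41.2, 42.6 and 39.6 FPKM without irradiation (0.74 ± 0.04, adjusted p = 3.31e-08) and from 68.5, 72.7 and 75.7 to 96.3, 85.0 and 93.3 FPKM in irradiated D7 organoids (0.34 ± 0.05, adjusted p = 2.01e-04). At D11 its groups overlapped (0.11 ± 0.10, adjusted p = 0.398).

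Slc3a2, the heavy chain that both of these and Slc7a5 need, did not pass the test without irradiation, with 61.9, 65.1 and 67.7 FPKM after vehicle and 64.2, 65.8 and 66.1 FPKM after TGFB1 without irradiation (0.01 ± 0.04, adjusted p = 0.82). Its rises of 0.12 ± 0.04 in irradiated D7 and 0.25 ± 0.09 in D11 organoids (adjusted p = 0.0214 and 0.0269) were small, and their adjusted p reached 0.154 and 0.105 under other settings. Slc43a2, a facilitative carrier of large neutral amino acids, fell without irradiation from 2.86, 3.17 and 3.24 to 2.24, 2.50 and 2.12 FPKM (-0.32 ± 0.08, adjusted p = 0.00329). It rose in irradiated D7 organoids from 11.2, 10.7 and 11.4 to 13.8, 14.8 and 13.6 FPKM (0.32 ± 0.05, adjusted p = 2.48e-04), and fell at D11 from 6.43, 6.87 and 7.45 to 4.51, 3.76 and 4.22 FPKM (-0.62 ± 0.10, adjusted p = 4.03e-04). Its paralog Slc43a1 fell at D11 from 3.01, 1.96 and 1.63 to 0.431, 0.301 and 0.221 FPKM (-1.26 ± 0.16, adjusted p = 8.84e-05). Slc36a1, a proton-coupled carrier of small amino acids in lysosomes and the brush border, was called at D11 and not on D7, with 4.42, 3.97 and 4.31 FPKM after vehicle and 5.77, 5.05 and 5.56 FPKM after TGFB1 (0.30 ± 0.09, adjusted p = 0.0169, reaching 0.0773 with libraries left out).

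Among the carriers that feed growth, Slc7a5 fell on D7 and rose at D11. Slc7a5, which imports leucine and other large neutral amino acids, stood at 21.6, 21.6 and 22.6 FPKM with vehicle and 17.1, 17.9 and 18.5 FPKM with TGFB1 without irradiation (-0.29 ± 0.04, adjusted p = 1.56e-04). After irradiation it stood on D7 at 36.4, 34.7 and 35.1 FPKM with vehicle and 15.8, 17.1 and 16.2 FPKM with TGFB1 (-1.07 ± 0.05, adjusted p = 8.30e-09). At D11 the order was reversed, with 24.4, 19.4 and 16.5 FPKM after vehicle and 43.3, 45.0 and 39.8 FPKM after TGFB1 (1.06 ± 0.12, adjusted p = 5.15e-05). No vehicle and TGFB1 libraries of a table overlapped, and the day interaction was 2.13 ± 0.14 (adjusted p = 3.12e-08), the largest of the 45 members tested in that term.

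Slc7a11, the light chain of the cystine and glutamate exchanger that supplies cysteine for glutathione, stood at 6.86, 7.29 and 7.06 FPKM with vehicle and 6.13, 7.58 and 8.29 FPKM with TGFB1 without irradiation, where the groups overlapped (0.04 ± 0.09, adjusted p = 0.716). They overlapped in irradiated D7 organoids too (0.03 ± 0.09, adjusted p = 0.807). At D11 it rose from 2.23, 2.11 and 1.40 to 4.92, 5.67 and 4.96 FPKM (1.10 ± 0.13, adjusted p = 5.84e-05), with a day interaction of 1.07 ± 0.16 (adjusted p = 5.48e-05). Slc38a2, a sodium-coupled carrier of small neutral amino acids that cells raise when starved of them, differed by 0.06 ± 0.03 (adjusted p = 0.133) without irradiation. It rose from 47.7, 44.4 and 47.2 to 62.8, 62.0 and 65.3 FPKM in irradiated D7 organoids (0.44 ± 0.04, adjusted p = 3.28e-06) and from 36.4, 27.4 and 33.4 to 71.0, 68.4 and 98.1 FPKM at D11 (1.25 ± 0.15, adjusted p = 1.10e-04).

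The glutamine carrier Slc1a5 fell in each table. It stood at 101, 99.0 and 99.3 FPKM with vehicle and 73.9, 72.0 and 75.5 FPKM with TGFB1 without irradiation (-0.43 ± 0.03, adjusted p = 5.34e-07). On D7 after irradiation it stood at 63.9, 61.5 and 60.5 and 27.9, 27.8 and 26.5 FPKM (-1.15 ± 0.04, adjusted p = 2.29e-09) and at D11 at 97.1, 88.5 and 85.0 and 58.9, 61.0 and 51.0 FPKM (-0.66 ± 0.09, adjusted p = 1.63e-04). Slc1a4, a carrier of serine and alanine, changed by -0.32 ± 0.04, -0.85 ± 0.05 and -0.50 ± 0.10 in the same order (adjusted p = 1.25e-05, 1.02e-07 and 0.00215). Slc38a1, a glutamine carrier, changed by -0.89 ± 0.04, -0.62 ± 0.05 and -0.73 ± 0.07 (adjusted p = 8.24e-09, 1.15e-06 and 1.22e-05). Slc7a6, a light chain for cationic and neutral amino acids, rose in all 3 tables, by 0.53 ± 0.05, 0.56 ± 0.07 and 1.16 ± 0.10 (adjusted p = 4.36e-06, 3.13e-05 and 7.17e-06). The opposite-strand gene Slc7a6os, which overlaps it, was not called in any of these tables. Of the other cationic amino acid carriers, Slc7a3 fell without irradiation from 1.94, 2.25 and 1.98 to 0.556, 0.514 and 0.474 FPKM (-1.01 ± 0.08, adjusted p = 1.31e-06), and Slc7a2 fell at D11 from 3.81, 2.64 and 2.19 to 0.384, 0.394 and 0.237 FPKM (-1.52 ± 0.15, adjusted p = 2.00e-05).

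The promoters of Slc7a11 and Slc1a4 are shown from the 3 members whose windows held a match to the amino acid response element. Slc7a7 also held it but is not shown, and it was not called in irradiated crypt cells. Slc7a11 and Slc1a4, like Slc7a5, were higher in those cells (below), and Slc7a11 is a known ATF4 target. Slc2a1, Slc7a6 and Slc43a1 were also higher there and gave no match. They run over the same 160 bases around the start as above, at chr3:50443604-50443763 (minus strand) for Slc7a11 and chr11:20332704-20332863 (minus strand) for Slc1a4. Capitals mark the amino acid response element searched, TGATGNAA on either strand, which ATF4 binds with a partner.
Slc7a11: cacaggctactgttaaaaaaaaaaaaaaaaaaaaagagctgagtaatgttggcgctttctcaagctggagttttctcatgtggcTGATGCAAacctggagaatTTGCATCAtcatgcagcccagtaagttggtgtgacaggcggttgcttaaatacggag
Slc1a4: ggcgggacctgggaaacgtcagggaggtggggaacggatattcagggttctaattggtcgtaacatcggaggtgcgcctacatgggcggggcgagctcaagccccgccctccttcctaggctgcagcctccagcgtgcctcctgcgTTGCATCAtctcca
Slc7a11 held the element on both strands, with first bases 66 and 47 bases before the start, and Slc1a4 held it on the strand opposite the gene, where it begins 4 bases before the start in the sequence as printed. The element was in 3.97% of all 32851 windows of 300 bases. It was in 4 of the 55 member windows, including windows of Slc7a7. The table holds no window for Slc7a5, Slc1a5, Slc6a6, Slc6a8 and Slc38a1.

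**Figure D2:**
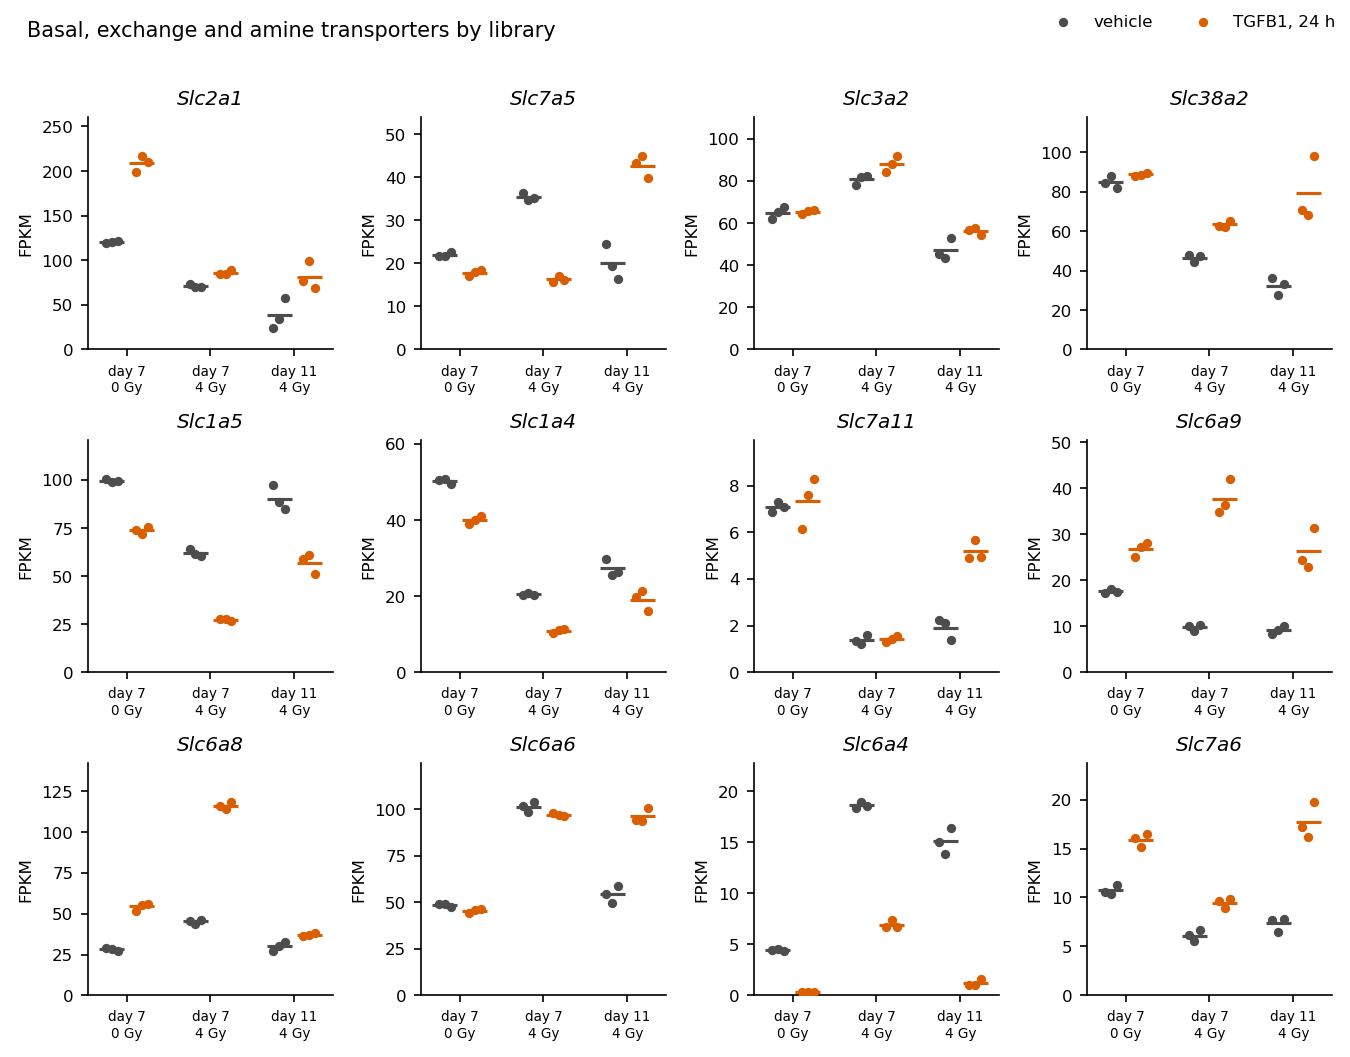
Levels in FPKM (linear axes from 0, scaled per gene) of 12 exchange, growth and amine carriers in the 3 conditions, 1 point per library, with vehicle and TGFB1 in separate colours and a bar at each group mean. Slc7a5 lay lower with TGFB1 on D7 and higher with it on D11, while Slc6a9 lay higher with TGFB1 in all 3 conditions.

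The Slc6 carriers of amines and osmolytes showed some of the largest changes. Slc6a9, the glycine carrier, stood at 17.3, 18.1 and 17.6 FPKM with vehicle and 25.0, 27.2 and 28.2 FPKM with TGFB1 without irradiation (0.57 ± 0.05, adjusted p = 1.64e-06). Irradiated D7 organoids held it at 9.99, 8.95 and 10.4 FPKM with vehicle and 34.8, 36.5 and 42.1 FPKM with TGFB1 (1.84 ± 0.08, adjusted p = 8.04e-09), and at D11 at 8.44, 9.23 and 10.1 and 24.5, 22.9 and 31.4 FPKM (1.40 ± 0.12, adjusted p = 5.80e-06). The irradiation interaction was 1.27 ± 0.10 (adjusted p = 1.09e-07). Slc6a8, the creatine carrier, stood at 45.5, 44.0 and 46.3 FPKM with vehicle and 116, 114 and 119 FPKM with TGFB1 in irradiated D7 organoids (1.34 ± 0.04, adjusted p = 4.56e-10). It rose by 0.92 ± 0.04 without irradiation and 0.29 ± 0.08 at D11 (adjusted p = 1.01e-08 and 0.00804), and the day interaction was -1.05 ± 0.08 (adjusted p = 1.32e-07).

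Slc6a4, the serotonin carrier of enterocytes, fell in each table. Without irradiation it stood at 4.43, 4.50 and 4.37 FPKM with vehicle and 0.359, 0.355 and 0.365 FPKM with TGFB1 (-2.0 ± 0.07, adjusted p = 1.66e-09). In the irradiated D7 table it stood at 18.4, 19.0 and 18.6 and 6.67, 7.34 and 6.69 FPKM (-1.31 ± 0.05, adjusted p = 5.50e-09), and at D11 at 15.0, 13.9 and 16.4 and 0.980, 1.02 and 1.55 FPKM (-2.89 ± 0.12, adjusted p = 9.35e-08). The day interaction was -1.57 ± 0.13 (adjusted p = 2.17e-07). Slc6a6, the taurine carrier and the Slc6 member with the highest mean level, had small differences on D7 (-0.10 ± 0.04 without and -0.06 ± 0.04 with irradiation, adjusted p = 0.0339, reaching 0.122 under other settings, and 0.118). At D11 it rose from 54.4, 49.8 and 58.8 to 94.3, 93.7 and 101 FPKM (0.82 ± 0.08, adjusted p = 2.02e-05). Slc6a7, a proline carrier, reached at most 1.69 FPKM and passed the filter on low values in no table.

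The irradiation interaction was positive for 20 and negative for 12 of 44 members (25.3 and 27.8% of all genes, 53.1% together), and at least 2-fold for 6 and 1 of them (2.53 and 1.85%). A positive term here means a smaller fall or a larger rise in irradiated organoids. The 6 were Slc2a2, Slc2a5, Slc3a1, Slc5a1, Slc6a9 and Slc6a20a, and the 1 was Slc1a1. The day interaction was positive for 12 and negative for 16 of 45 members (31.5 and 33.0% of all genes, 64.5% together), and at least 2-fold for 4 and 4 (6.83 and 9.58%). Without the D11 vehicle replicate 3, Slc1a1 lost its day call (-0.41, adjusted p = 0.0618), and Slc2a1 (1.18, adjusted p = 0.000287) and Slc3a2 (0.21, adjusted p = 0.0272) gained one. The positive 4 with all libraries were Slc5a11, Slc6a19, Slc7a5 and Slc7a11, and the negative 4 were Slc2a2, Slc5a1, Slc6a4 and Slc6a8.

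**Figure D3:**
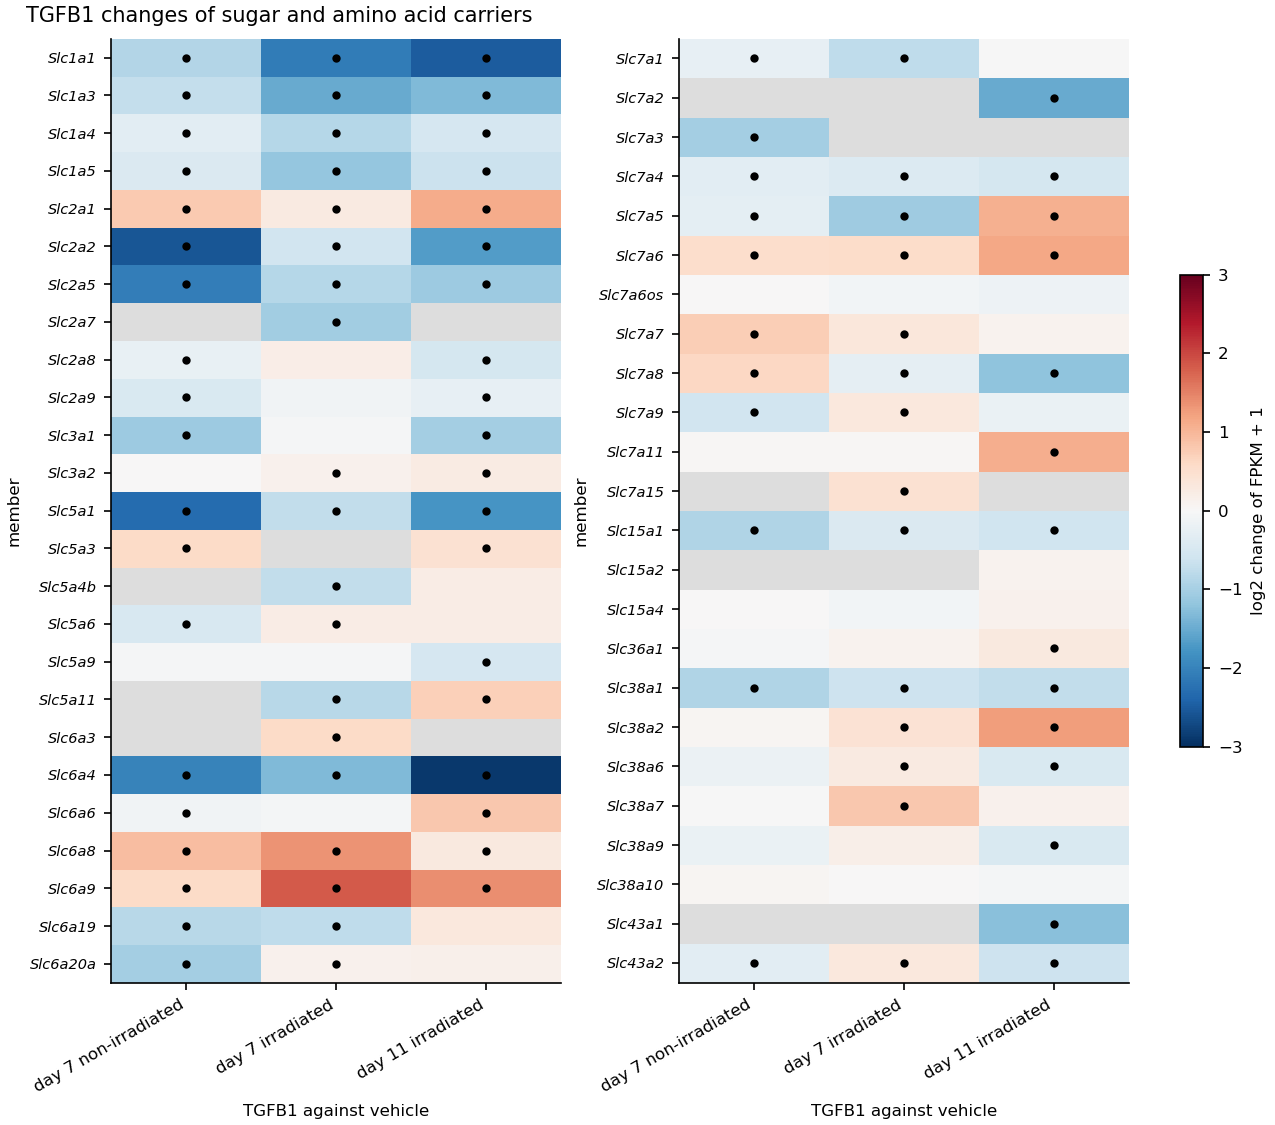
Changes of log2(FPKM + 1), TGFB1 minus vehicle, for the 49 members tested in any of 3 conditions (columns), with blue for lower and red for higher; black dots mark an adjusted p under 0.05 (limma) and grey cells were not tested. Slc1 members are blue throughout, and Slc7a5 turns from blue on D7 to red on D11.

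Vehicle levels differed between the conditions as well. These are given side by side with no test, since each table may have been normalized separately. Of the 45 members in the filter, 14 were at least 2-fold higher in irradiated than in non-irradiated D7 organoids with no overlap (9.87% of all genes) and 6 were lower (10.6%). Slc6a19 was 24.0-fold, Slc5a4b 12.8-fold, Slc5a11 10.3-fold, Slc6a20a 9.83-fold, Slc2a7 8.84-fold, Slc7a8 7.32-fold, Slc15a1 4.86-fold and Slc2a5 4.82-fold higher after irradiation by the ratio of means. Lower ones were led by Slc7a3, at 2.06 FPKM without and 0.0668 FPKM after irradiation (30.8-fold), and included Slc5a3 by 5.61-fold, Slc38a1 by 5.09-fold, Slc7a11 by 5.07-fold and Slc1a4 by 2.45-fold. At D11 11 members were at least 2-fold lower than in irradiated D7 organoids (4.20% of all genes) and 1, Slc7a2, was higher (6.06%). Slc5a11 was 18.9-fold, Slc5a4b 9.07-fold, Slc6a19 9.02-fold and Slc15a1 5.01-fold lower at D11. Without the D11 vehicle replicate 3, in a comparison added after seeing the data, these were 28.3-, 10.1-, 12.6- and 6.84-fold, and Slc5a1 (2.45-fold), Slc2a1 (2.42-fold) and Slc7a7 (2.12-fold) were also lower, and Slc5a3 2.01-fold higher, with no overlap.

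Summed enterocyte markers were lower with TGFB1 without irradiation and at D11 and higher with it in irradiated D7 organoids. The summed level of the 10 enterocyte markers went from 3330 to 3480 FPKM with vehicle to 1540 to 1670 FPKM with TGFB1 without irradiation, where 8 of 10 were called lower and 2 higher. In irradiated D7 organoids it went from 14200 to 15100 FPKM to 21200 to 22000 FPKM, with 5 higher and 4 lower, and at D11 from 3410 to 6050 FPKM to 2230 to 2630 FPKM, with 1 higher and 5 lower. The carrier falls in irradiated D7 organoids therefore stood beside a higher enterocyte sum. In bulk RNA, fewer cells of a type and less RNA per cell cannot be told apart, and the part of cell composition in these results was not tested. Regenerative markers, which mark the state of a repairing epithelium, were higher for 7 of 7 genes in all 3 conditions. Proliferating markers were lower for 5 and higher for 1 of 8 without irradiation, and lower for 8 of 8 in irradiated D7 organoids. At D11 0 of 8 were lower and 3 were higher. The summed immune markers stood at 24.7 to 28.4 FPKM with vehicle and 80.3 to 89.8 FPKM with TGFB1 without irradiation. Cd74 made up nearly all of this sum, with means of 26.23 and 83.25 FPKM, and only 1 of the 6 markers was tested there. Ptprc stood at 0.008814 and 0.01948 FPKM and Lyz2 at 0.4263 and 0.2349 FPKM in the same groups. Elsewhere the immune sum was at most 12.4 FPKM, and the mesenchymal markers summed to at most 6.78 FPKM.

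The partners of these carriers were counted over lists chosen by function. Of the 11 brush border enzymes tested, which digest sugars and peptides before uptake, all 11 were lower without irradiation, 9 lower and 2 higher in irradiated D7 organoids, and 7 lower and 1 higher at D11. Enpep, which encodes an aminopeptidase, and Sis, which encodes sucrase-isomaltase, had the largest changes of the list without irradiation, at -2.64 and -2.63. Lct, the lactase gene, rose by 1.84 in irradiated D7 organoids, the largest change of the list there, followed by Enpep at -1.42. At D11 Mep1a, a meprin subunit, changed by -2.02. Of the 8 genes of the sodium and potassium gradient, 5 were lower and 1 higher without irradiation, with Slc9a3, an apical sodium and proton exchanger, at -1.27. In irradiated D7 organoids 5 were lower and 2 higher, with the potassium channel genes Kcne3 at -0.65 and Kcnq1 at -0.62, and at D11 4 were lower and 3 higher, with Kcne3 at 2.25. Among the sugar metabolism genes, 7 of 16 were lower and 4 higher without irradiation. Of 17 tested in irradiated D7 organoids 12 were lower and 4 higher, and of 17 at D11 11 were lower and 1 higher. The largest changes were those of Fbp1 and Khk, the fructose kinase, without irradiation (-2.06 and -2.04) and of the glycolysis genes Pfkl and Pgam1 in irradiated D7 organoids (-1.06 and -1.03). Fbp1, a gluconeogenesis gene, changed by -4.20 and Txnip, whose protein restrains glucose uptake, by -2.85 at D11.

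The ATF4 and amino acid response list changed its balance with irradiation and with day. Both interactions were positive for 8 and negative for 3 of its 14 genes. Slc7a5 also had a positive day term, but it fell more with TGFB1 in irradiated than in non-irradiated D7 organoids. It had 13 lower and 1 higher of 14 without irradiation, 7 lower and 3 higher in irradiated D7 organoids, and 2 lower and 6 higher at D11. Shmt2 and Psat1, enzymes of serine and glycine metabolism, changed by -1.83 and -1.71 in irradiated D7 organoids. Atf5, a transcription factor of this response, and Psat1 changed by -1.16 and -1.01 without irradiation, and the proline synthesis genes Aldh18a1 and Pycr1 by -1.24 and -0.96 at D11. The glutathione and NRF2 list had 4 higher and 4 lower of 11 without irradiation, 5 and 4 in irradiated D7 organoids, and 7 higher and 0 lower at D11, where Slc7a11 rose. Hmox1, which degrades heme, rose by 1.60 and Gclc, the limiting enzyme of glutathione synthesis, by 1.47 at D11. On D7 the largest changes were those of Hmox1 (1.65 and 1.78 without and with irradiation) and of Gsr, the glutathione reductase gene (-1.03 and -1.24). These counts are descriptions of the lists beside the shares of all genes given above.

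In single cells of irradiated D8 organoids, the same carriers split between absorptive and other cells. After filters 2932, 4283, 2890 and 2218 cells were kept at 0, 6, 15 and 24 h, with median depths of 8201.5, 6709, 7805 and 10441 UMIs (counted RNA molecules). At most 1 cell barcode was shared by any 2 libraries, and no doublet caller was run. Cells were clustered without the members, and of 12 clusters those numbered 1 and 2 were enterocyte-like by their markers. Of the 41 members with at least 10 CPM (UMIs scaled to a fixed library total) in a class, 15 were at least 2-fold higher in enterocyte-like than in other cells in all 4 libraries (5.73% of 9535 genes) and 9 were at least 2-fold lower (18.2%). Slc5a4b was 10.9- to 17.1-fold, Slc15a1 7.21- to 8.74-fold, Slc5a1 4.22- to 7.09-fold and Slc2a2 5.15- to 8.89-fold higher over the libraries. Slc7a8, a basolateral carrier, was 2.23- to 3.20-fold higher. The 9 on the other side, a share near that of all genes, were Slc1a1, Slc1a3, Slc1a4, Slc1a5, Slc5a3, Slc7a1, Slc7a5, Slc7a6 and Slc38a1. Slc1a1, grouped with the absorptive carriers above, was thus not higher in enterocyte-like cells here, and was 2.065- to 4.706-fold higher in the other cells. Slc1a3 stood at 0.729 to 1.38 CPM in enterocyte-like and 5.35 to 20.4 CPM in other cells. Slc7a6 was 4.42- to 8.41-fold, Slc1a5 4.97- to 6.23-fold and Slc7a5 3.22- to 5.45-fold higher in the other cells. Slc2a1, Slc38a2 and Slc7a11 stood on neither side by this rule, with Slc7a11 1.73- to 3.12-fold higher in the other cells.

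The clusters show the split in more detail. Slc5a1 summed to 2483 CPM in cluster 1 and 1504 CPM in cluster 2, beside 112 CPM in the proliferating-like cluster 0 and 91.9 CPM in the regenerative-like cluster 5, which was led by Ccn2 and Clu. Slc1a5 ran the other way, with 8.57 and 15.5 CPM in clusters 1 and 2 beside 83.7 and 66.4 CPM in clusters 0 and 5. Cluster 7, led by Ada and Msln, was regenerative-like by its markers here, but the Ada-led cluster was villus tip-like with a finer clustering (resolution 1.0) and with 20 principal components. It held Slc2a1 at 132.6 CPM, Slc7a11 at 27.0 CPM and Slc6a8 at 178.8 CPM, beside 34.3, 4.55 and 48.8 CPM in cluster 5. Cluster 7 also held Slc5a1 at 780.3 CPM, and its Slc5a1 level was 1421, 1354, 498 and 385 CPM at 0, 6, 15 and 24 h. Within cluster 1 Slc5a1 was at 2994, 2959, 2038 and 1926 CPM at these times. Over all enterocyte-like cells it was at 2210.0, 2141, 1660.0 and 1892 CPM, and over the other cells at 357.3, 302.1, 273.4 and 448.6 CPM, lowest at 15 h in both. The other cells include unnamed clusters. Of these, clusters 4 and 11 scored highest for the enterocyte markers (median 1.31- and 2.95-fold over the remaining cells). With 20 principal components a cluster led by Ctrb1, as cluster 4 is, was enterocyte-like.

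**Figure D4:**
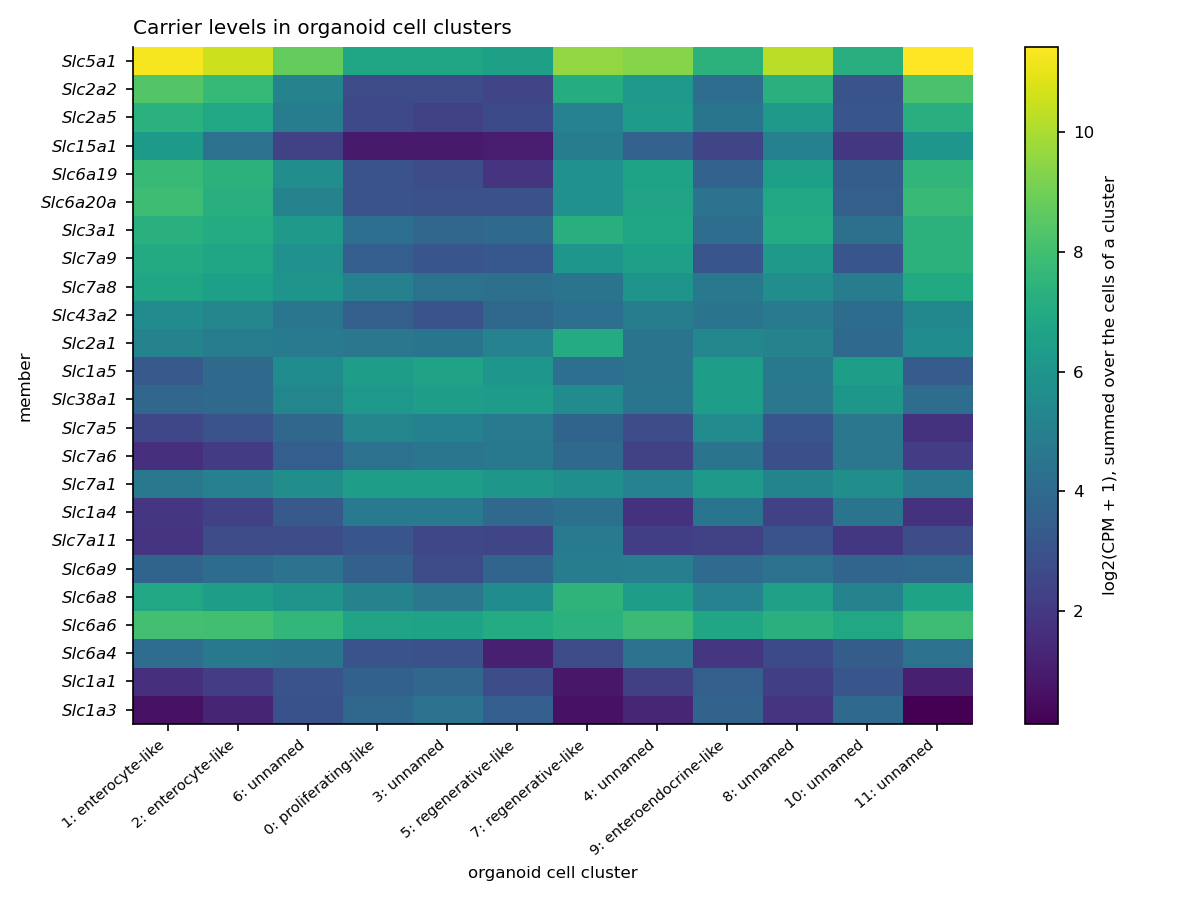
Levels of 24 members as log2(CPM + 1), summed over the cells of each of 12 organoid clusters (columns, with the class name where markers gave one) from all 4 libraries. Slc5a1 is brightest in clusters 1, 2 and 11, and Slc2a1 and Slc7a11 are brightest in cluster 7.

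Over the time course each time has 1 library, so that differences have no replicate check and intervals cover counting error only (exact Poisson, 95%). By a rule of at least 1.5-fold with separate intervals, chosen with the data in view, 2 of 35 members were higher (3.47% of genes) and 5 lower (1.43%) at 6 h, and 2 of 36 were higher (11.9%) and 11 lower (6.47%) at 24 h. The early 5 were Slc1a3, Slc1a4, Slc2a5, Slc7a5 and Slc7a11, and the higher pair at both times was Slc6a8 and Slc6a9. Slc5a1 summed to 972, 891, 651 and 605 CPM at 0, 6, 15 and 24 h, and Slc2a2 to 124, 114, 78.6 and 72.6 CPM. Slc2a5 stood at 73.0, 45.5, 42.8 and 62.9 CPM, lower at 6 and 15 h than at the other times. Slc7a11 stood at 11.3, 4.49, 4.87 and 5.22 CPM, Slc1a4 at 22.5, 12.9, 9.20 and 9.21 CPM and Slc7a5 at 29.0, 17.9, 12.8 and 17.3 CPM, each lower at 6 h than at 0 h. The intervals of Slc7a11 were 10.0 to 12.6 CPM at 0 h and 3.79 to 5.28 CPM at 6 h, and those of Slc5a1 960.3 to 984 CPM at 0 h and 596 to 614 CPM at 24 h. Slc6a8 stood at 47.9, 78.3, 78.1 and 78.4 CPM and Slc6a9 at 8.58, 16.2, 19.5 and 19.6 CPM, higher at 6 h and later than at 0 h.

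The cell mixture differed between these libraries. Enterocyte-like cells made up 36.7, 35.6, 30.5 and 10.6% of cells at 0, 6, 15 and 24 h, and regenerative-like cells 4.16, 6.09, 22.0 and 31.2%. These shares depend on the clustering. With 20 principal components enterocyte-like cells were 23.9, 28.3, 41.2 and 35.4%, with no fall at 24 h against 0 h, and regenerative-like cells 0.375, 1.03, 5.40 and 13.4%. With resolution 1.0 enterocyte-like cells were 36.3, 29.6, 30.7 and 20.5% and regenerative-like cells 0.205, 0.724, 4.39 and 11.1%. Most enterocyte-like cells at 0 h were in cluster 2 (697 cells), which held 8 cells at 24 h, where cluster 1 held 227, and cluster 4, an unnamed cluster led by Ctrb1, held 32 cells at 0 h and 618 at 24 h. The summed enterocyte markers stood at 23510.0, 24800.0, 25420.0 and 21110.0 CPM, and the part of cell mixture in the time course was not tested.

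In Ki67-RFP+ crypt cells, calls of higher carriers in the irradiated libraries included Slc1a4, Slc7a5, Slc7a11, Slc7a6 and Slc2a1, and calls of lower ones Slc6a20a, Slc7a8, Slc3a1 and Slc7a9. The libraries held 1846 non-irradiated and 719 and 699 irradiated cells, and the summed UMIs were tested with edgeR's quasi-likelihood test, in which the lone non-irradiated library is taken to vary like the irradiated ones. Of the 48 members tested, 11 were called higher (16.9% of all genes) and 12 lower (16.4%). With at least 2-fold, 6 were higher (10.4%) and 10 lower (7.57%). The median change of the members was -0.11 and that of all genes 0.00. DESeq2 called 7 higher and 9 lower. Slc1a4 stood at 2.17 CPM in the non-irradiated and 19.1 and 18.9 CPM in the irradiated libraries, a change of 2 libraries against 1 on the log2 scale (2.95, adjusted p = 1.09e-06). Slc7a5 stood at 7.84 CPM in the non-irradiated and 42.0 and 37.5 CPM in the irradiated libraries (2.17, adjusted p = 9.25e-07), and Slc7a11 at 1.05 CPM in the non-irradiated and 5.02 and 6.97 CPM in the irradiated libraries (2.33, adjusted p = 3.57e-04). Both irradiated libraries lay above the non-irradiated one for each of these. Slc2a1 stood at 15.7 CPM in the non-irradiated and 34.1 and 38.7 CPM in the irradiated libraries (1.03, adjusted p = 2.62e-04). The growth carriers Slc1a5 (0.50, adjusted p = 0.0171, reaching 0.11 with DESeq2) and Slc38a1 (0.73, adjusted p = 0.00158) were called higher, and Slc38a2 was not called (-0.16, adjusted p = 0.427). Slc7a6 stood at 4.70 CPM in the non-irradiated and 19.7 and 19.6 CPM in the irradiated libraries (1.89, adjusted p = 1.87e-05), and its opposite-strand neighbour Slc7a6os was higher too (0.66, adjusted p = 0.0111), a pair whose reads overlap where strand is not kept. Slc43a1 rested on 3 UMIs in the non-irradiated library beside 30 and 15 in the irradiated ones, ratios of 18.8 (counting interval 5.83 to 96.1) and 10.4 (2.95 to 56.2).

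Lower calls included several carriers of absorption. Slc6a20a stood at 33.5 CPM in the non-irradiated and 1.75 and 2.11 CPM in the irradiated libraries (-4.29, adjusted p = 1.27e-08), and the peptide carrier Slc15a2 at 7.41 CPM in the non-irradiated and 0.801 and 0.486 CPM in the irradiated libraries (-3.67, adjusted p = 5.97e-06). Slc6a4 stood at 29.7 CPM in the non-irradiated and 2.62 and 3.16 CPM in the irradiated libraries (-3.54, adjusted p = 5.67e-08) and Slc7a8 at 64.1 CPM in the non-irradiated and 7.21 and 8.75 CPM in the irradiated libraries (-3.19, adjusted p = 1.05e-08). Both irradiated libraries lay below the non-irradiated one for these genes. Slc3a1 and Slc7a9, the subunits of the cystine exchanger, stood at 29.5 CPM in the non-irradiated and 7.06 and 13.0 CPM in the irradiated libraries (-1.74, adjusted p = 0.0186) and 51.7 CPM in the non-irradiated and 11.7 and 20.2 CPM in the irradiated libraries (-1.88, adjusted p = 0.029). Lower calls were also made for Slc1a1 (-1.75, adjusted p = 6.78e-07), Slc1a3 (-1.17, adjusted p = 3.66e-04) and Slc43a2 (-1.25, adjusted p = 0.00252). Slc6a7 rested on 39 UMIs in the non-irradiated and 3 and 5 in the irradiated libraries, 6.93 times (counting interval 2.2 to 35.0) and 3.74 times (1.47 to 12.1) as many by CPM in the non-irradiated one.

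Other absorptive carriers were uneven between the irradiated libraries. Slc5a1 stood at 106 CPM in the non-irradiated and 64.2 and 143 CPM in the irradiated libraries (-0.21, adjusted p = 0.895), with the non-irradiated library between the irradiated ones. Slc15a1 stood at 3.26 CPM in the non-irradiated and 1.02 and 9.32 CPM in the irradiated libraries and Slc6a19 at 16.8 CPM in the non-irradiated and 0.874 and 12.2 CPM in the irradiated libraries, and neither passed the test. A small cluster led by Cyp3a11, Apoc2 and Lct held 3 cells of the non-irradiated and 9 and 33 cells of the irradiated libraries, with 0.139, 0.542 and 2.26% of their UMIs. Without it, in a comparison added after seeing the data, 12 members were called higher and 16 lower, beside 19.5% of all genes called higher and 39.5% called in either direction. Slc2a5 was then lower, at -2.83 (adjusted p = 1.05e-07), and Slc15a1 at -1.74 (adjusted p = 0.011), while Slc5a1 (-0.63, adjusted p = 0.446) and Slc2a2 (-0.89, adjusted p = 0.369) were not called.

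The crypt libraries differed in makeup and handling. The summed enterocyte markers stood at 4276 CPM in the non-irradiated and 846.6 and 2552 CPM in the irradiated libraries, and regenerative markers at 1.85 beside 451.7 and 592.2 CPM. Crypt clusters were largely split by library, and the labels give a different strainer mesh for non-irradiated and irradiated crypts, so the radiation dose and the preparation cannot be told apart. The part of cell makeup in the crypt results was not tested. Side by side, Slc7a5 and Slc7a11 were higher in irradiated crypt cells and in D11 organoids after TGFB1. In both D7 conditions Slc7a5 was lower with TGFB1 and Slc7a11 was not called. Slc2a1 and Slc7a6 were higher in irradiated crypt cells and with TGFB1 in all 3 organoid conditions. Slc1a4, Slc1a5 and Slc38a1 were higher in irradiated crypt cells and lower with TGFB1 in all 3 organoid conditions.

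**Figure D5:**
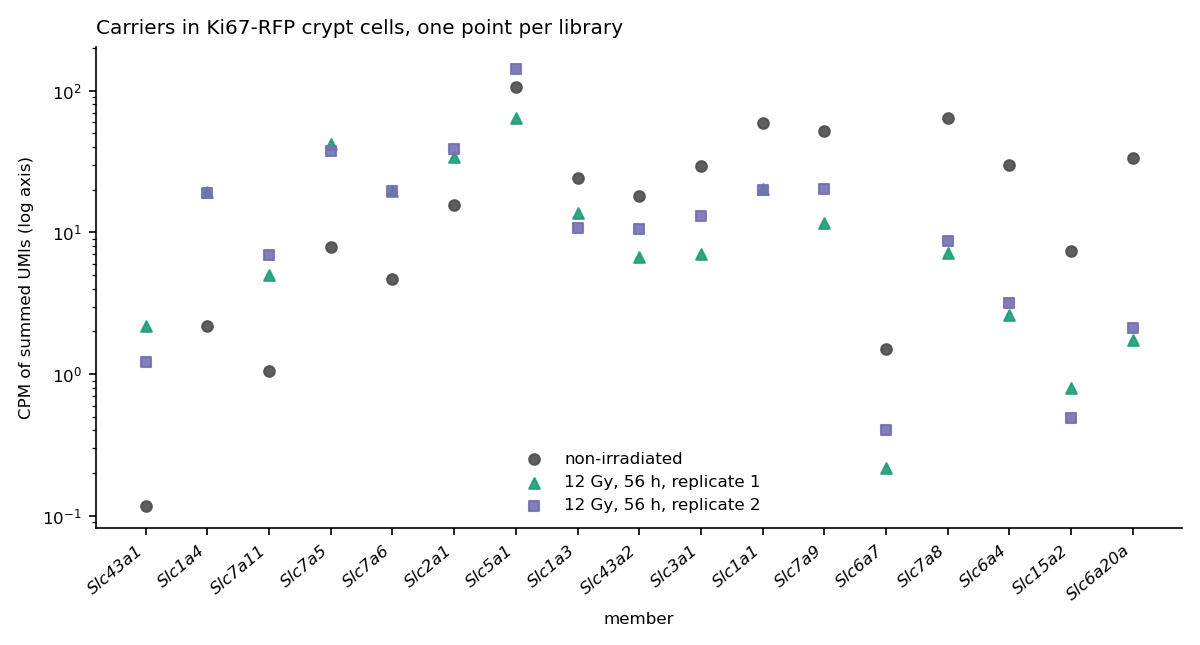
CPM of summed UMIs (log axis) of 17 members in the 3 libraries of Ki67-RFP+ crypt cells, 1 point per library, with the members that rose at the left and those that fell at the right. Slc5a1 is shown between them because its non-irradiated level lay between the 2 irradiated ones.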

How the data were processed

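Bulk RNA of 18 organoid libraries and single cells of 4 organoid and 3 crypt libraries were used, and 18 ATAC-seq samples were not analysed here. The authors deposited FPKM values per gene in 3 tables, each holding 1 condition. The submitters' processing notes name TopHat2 2.1.0 and Cuffnorm 2.2.1, without saying for which file. The single-cell matrices hold expected counts (UMIs that need not be whole) as deposited by the authors, and the same notes name STARsolo. Sums per library were rounded before testing.

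The members, lists and thresholds were chosen with earlier results of these data known. Genes averaging 1 FPKM or more were tested on log2(FPKM + 1) with limma 3.58.1 (trend, robust), per table and for 2 interactions over 12 libraries, in which a factor common to a table cancels up to the added 1. Cells were kept from 500 UMIs, 250 genes and up to 20% of UMIs from mitochondrial genes, and clustered with scanpy 1.11.5 and leidenalg 0.10.2. Summed crypt UMIs were tested with edgeR 4.0.16, with DESeq2 1.42.0 as an alternative. The tests were tried on simulated data first. Members were named if called with at least 2-fold in any contrast or in crypts, if highest in their family, or by a fixed list of roles. Promoter sequences are from RefSeq (GRCm38.p6). How many reads lie behind an FPKM value is unknown, and Poisson intervals cover counting error only. Values of some genes on the partner lists are not reported here.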

Additional observations from a re-analysis of the deposited data

Results flagged for a closer look

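The response to TGFB1 differed between irradiated and non-irradiated D7 organoids by at least 2-fold for 7 named members, by the interaction term (limma, adjusted p under 0.05, 3 libraries a group). It was 1.98 for Slc2a2, 1.55 for Slc5a1, 1.22 for Slc2a5, 1.06 for Slc3a1, 1.14 for Slc6a20a and 1.27 for Slc6a9. For Slc1a1 it was -1.21. By the same rule 2.53% of all genes tested were positive and 1.85% negative.

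The response differed between D11 and D7 after irradiation by at least 2-fold for 8 named members. These were 8.89% of the 45 members tested in each direction. The shares of all genes were near that, at 6.83% positive and 9.58% negative. The term was 2.13 for Slc7a5, 1.53 for Slc5a11, 1.10 for Slc6a19 and 1.07 for Slc7a11. It was -1.57 for Slc6a4, -1.10 for Slc2a2, -1.05 for Slc6a8 and -1.02 for Slc5a1. The adjusted p of Slc6a19 was 0.0495.

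In irradiated crypt cells 4 carriers were called higher that stayed below 1 FPKM in every bulk organoid library, and so lie outside the 53 described. Of the same kind, Slc38a4 was called lower, on 50 UMIs in the non-irradiated and 9 and 11 in the irradiated libraries (edgeR adjusted p = 0.0219). Slc1a2, Slc5a5, Slc5a12, Slc6a2, Slc6a20b and Slc36a1os were also tested and not called. Over all genes tested, 16.9% were called higher and 16.4% lower. Slc2a3, a glucose carrier of high affinity, had 37.4 CPM in the non-irradiated and 222 and 189 CPM in the irradiated libraries (log2 change 2.28, edgeR adjusted p = 4.63e-07). Slc7a14, an Slc7 member, had 6.25 beside 47.4 and 44.8 CPM (2.71, edgeR adjusted p = 1.01e-07). Slc5a8, a sodium-coupled carrier of monocarboxylates, rested on 4 beside 9 and 19 UMIs (2.57, edgeR adjusted p = 0.0382). Without the small cluster led by Cyp3a11, Apoc2 and Lct, Slc5a8 was too low to be tested (0.1555 beside 0.6589 and 0.6631 CPM). Slc2a6, a glucose carrier family member, rested on 0 beside 4 and 12 UMIs (edgeR adjusted p = 0.0308). The part of cell makeup in these differences was not tested.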

How the results depend on the processing

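Of 166 counts of members under other settings, 165 stayed within 1.5 times the count reported. The other was the number called higher in irradiated crypt cells, which was 11 with edgeR and 7 with DESeq2. The cause was not tested. For the members named, 2206 of 2324 values kept their direction and side of the threshold, 80 lost the call, 25 gained one and 12 crypt values with 1 irradiated library left out moved. The irradiation interaction of Slc2a7 reversed to 0.59 at a pseudocount of 0.1 FPKM.

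With each library left out in turn, higher and lower calls ran from 7 to 7 and 21 to 24 without irradiation, 11 to 14 and 18 to 19 in irradiated D7 organoids, and 8 to 14 and 19 to 20 at D11. For the interactions they ran from 19 to 21 and 12 to 12 with irradiation, and 10 to 14 and 14 to 15 with day. Same-numbered libraries correlated by -0.086 to 0.213 in their deviations, so the numbers were not taken as pairs. With a replicate block, higher and lower calls were 7 and 22, 16 and 18, and 12 and 20 in the 3 TGFB1 contrasts, and 19 and 12, and 12 and 16 in the interactions. Under it the D11 change of Slc2a1 lost its call (adjusted p = 0.0818, limma). The crypt comparison has 1 non-irradiated library.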
